A study of Mus musculus with 289 samples.

Results

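Glutamate uptake and metabolism was described through 7 genes in single cortical astrocytes of adult mice. The genes were taken by name: the uptake transporters Slc1a2 and Slc1a3, glutamine synthetase Glul, the glutamine carrier Slc38a3, the enzymes Glud1 and Got1, and the cystine/glutamate exchanger Slc7a11. All 7 were listed in each of the 5 batch tables of read counts, which together list 55487 genes. The animals were adult transgenic mice that express Cas9, and a lentivirus made to act in astrocytes was injected into their cerebral cortex. It carried guide RNAs (gRNAs) against Sox9, against Trps1 or against both, or a control gRNA. Sox9 is a SOX family transcription factor of astrocytes, and Trps1 is a repressor with a GATA-type zinc finger. Cells were drawn with an electrophysiology pipette, and each became a Smart-seq2 library of polyA RNA without molecular identifiers. In batches 2 to 5 the cells with a gRNA are labelled 7 or 21 days after injection. Cells without a gRNA are labelled only as adult. The sources used here do not say whether their animals received virus, nor do they give strain, sex, the promoters of the constructs or the cells that express Cas9. In-slice controls are libraries that the labels mark as holding no cell.

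The 240 astrocyte libraries formed 16 pools of 1 label, day and batch each, except that days were not separated in batch 1. Batch 1 held 31 cells without a gRNA, 10 with control gRNA and 4 with both gRNAs. Its labelled days ran from 8 to 16 with control gRNA and from 17 to 20 with both, in single steps from cell to cell, and were not used. Batch 2 held 7 cells with control gRNA at day 21, 8 with control gRNA at day 7 and 8 with both gRNAs at day 21. Batch 3 held 6 cells without a gRNA, 21 with Sox9 gRNA at day 7 and 14 with both gRNAs at day 7. Batch 4 held 15 cells with control gRNA, 16 with Sox9 gRNA and 13 with both gRNAs at day 21, and 14 with Trps1 gRNA at day 7. Batch 5 held 22 cells without a gRNA, 21 with Sox9 gRNA and 30 with Trps1 gRNA at day 21. There were 12 in-slice controls, labelled day 7 in batches 2 and 3 and day 21 in batches 4 and 5.

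Astrocytes clear synaptic glutamate through sodium-driven transporters and convert much of it to glutamine, which carriers release for neurons to turn back into glutamate. The rest can enter mitochondrial metabolism by way of glutamate dehydrogenase or transaminases. The cystine/glutamate exchanger works the other way: it exports glutamate while importing the cystine used for glutathione.

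No label names an animal, and cells of 1 animal are not replicates, so each pool counts as 1 sample and no test between pools was possible. Values are pooled CPM, reads of a gene over all reads in genes scaled to 1000000, with exact Poisson 95% intervals, which cover counting error only. The interval stands in parentheses after the level, with the lowest, highest and median CPM of the pool's cells where these are given. Differences are log2 ratios of pooled CPM + 5, which understate the change of low genes. A gene was past the fold at a ratio of at least 1 either way with 20 CPM or more in the higher pool. Comparisons stayed within a batch, and some values are also given without the highest cell of each pool. The plot of log2 ratios shows both for every member and comparison. Per-cell ranges of the 2 pools overlapped in all 98 member ratios.

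Astrocyte libraries held 15959 to 4656612 reads in genes (median 1094502), and in-slice controls 341394 to 2299609 (median 1002482.5). In 2 pools a pair of libraries was near-identical (r 0.998 and 0.994, against at most 0.564 and 0.560 for any other pair of those tables), and each pair was counted as 1 library. The 10 astrocyte markers, none of them a member, summed to 772 to 11717 CPM over the pools, and all 10 had reads in every pool. In-slice pools reached at most 1117 CPM, in batch 5, where the highest library held 3234 CPM. That was above the lowest astrocyte pool, batch 4 with both gRNAs, whose batch had an in-slice pool of 9.40 CPM. Cells of each label also carried markers of other cell types. The 8 microglia and macrophage markers summed to 149.96, 165 and 227 CPM in the pools without a gRNA and to between 3623 and 8452 CPM in the pools with one. All 8 had reads in every astrocyte pool except batch 3 without a gRNA, where C1qb, C1qc, Cx3cr1 and Tmem119 were at 0. The in-slice pools held 13968, 20973, 544 and 2991 CPM of these markers in batches 2 to 5. The part of these markers in the differences below was not tested. The mRNA of the targeted genes did not follow the labels throughout. Sox9 stood at 1860.2 CPM with both gRNAs against 209 with control gRNA in batch 1, and at 905 against 491 CPM at day 21 in batch 2. In batch 3 it was 1303 CPM with Sox9 gRNA and 1492 with both, against 382 without a gRNA. In batch 4, Sox9 stood at 177 CPM with control gRNA and 189 CPM in the pool labelled Sox9 gRNA, and Trps1 at 3.35 CPM with control gRNA and 118 CPM in the pool labelled Trps1 gRNA. In batch 5, Sox9 was lower with Sox9 gRNA (233 CPM) and Trps1 with Trps1 gRNA (57.6 CPM) than without a gRNA (307 and 96.5 CPM). With both gRNAs, Trps1 was below control at day 21 in batch 2 (19.4 against 107 CPM), and Sox9 in batch 4 (133 against 177 CPM). Trps1 with both gRNAs was above control in batch 1 (112 against 4.61 CPM) and batch 4 (16.7 against 3.35 CPM). In batch 3 it was above no gRNA (294 against 109 CPM). A cut gene can still be transcribed, so these levels do not check the labels.

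A window of 250 bases before a transcript start was matched in RefSeq (GRCm38.p6) for 6 members, and the entry for Slc38a3 was not matched. For 5 of them it lies close to the gene's start in GENCODE, but the Slc1a2 window, 102706188 to 102706437 on chromosome 2, lies inside the gene, and the bases before its first annotated start were not searched. Of these 6 windows, that of Slc1a3 alone held the SOX core ACAAT, searched on both strands. That of Got1 alone held the core of GATA factors, GATAA, searched likewise. These 2 are printed because the gRNAs target a SOX and a GATA-type factor. Capitals mark the match, and each sequence runs 5′ to 3′ along the gene's own strand, the minus strand in both cases.
Slc1a3, chr15:8710808-8711057: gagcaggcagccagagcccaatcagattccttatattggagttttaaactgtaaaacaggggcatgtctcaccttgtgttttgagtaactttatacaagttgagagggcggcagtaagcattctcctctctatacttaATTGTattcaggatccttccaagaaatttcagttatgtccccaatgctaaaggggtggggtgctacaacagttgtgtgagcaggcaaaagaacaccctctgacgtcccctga
Got1, chr19:43524606-43524855: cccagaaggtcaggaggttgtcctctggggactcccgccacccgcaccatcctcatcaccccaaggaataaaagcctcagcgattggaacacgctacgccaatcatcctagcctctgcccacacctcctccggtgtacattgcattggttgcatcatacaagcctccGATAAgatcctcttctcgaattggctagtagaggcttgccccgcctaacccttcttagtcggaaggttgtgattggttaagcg
The SOX core lies 112 bases before the start of Slc1a3, on the strand opposite the gene. It occurs in 27.7% of 32851 promoter windows of the same length. The GATA core lies 83 bases before the start of Got1, on the gene's strand, and occurs in 22.6% of them. A match describes letters in this window and shows no binding.

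**Figure D1:**
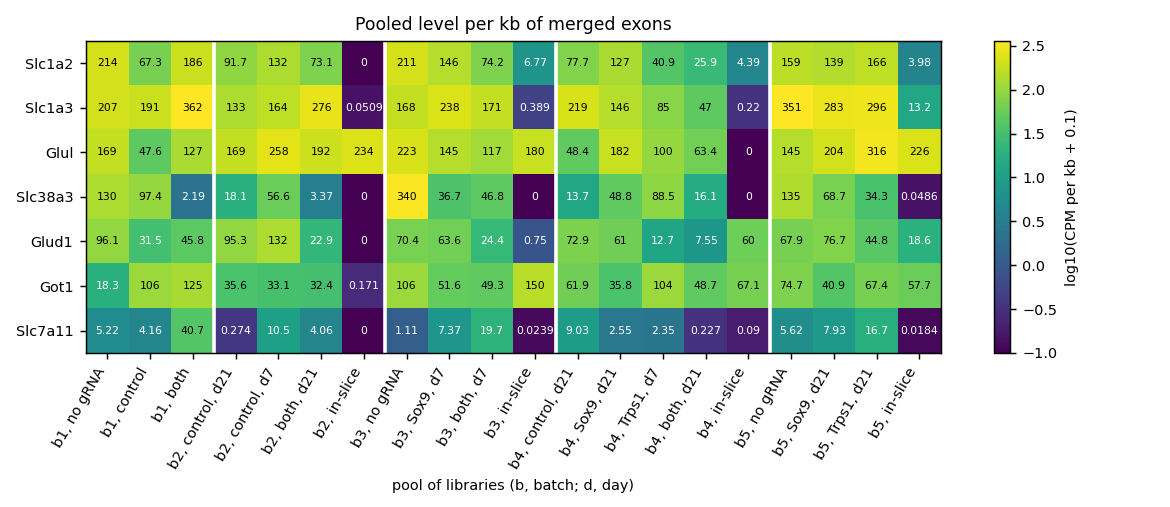
Level of each member (rows) in each pool (columns) as CPM per kb of merged exons, on a log10 colour scale of the value + 0.1. Brighter cells are higher. Slc1a2 and Slc1a3 are brighter in every astrocyte pool than in the in-slice controls. Slc7a11 is the darkest row in most astrocyte pools, and Glul and Got1 keep bright cells in the in-slice controls.

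Per length, Slc1a3, Glul and Slc1a2 led the group. The median pool held 199 CPM per kb of Slc1a3, 157 of Glul, 129.7 of Slc1a2, 62.3 of Glud1, 50.5 of Got1, 47.8 of Slc38a3 and 5.42 of Slc7a11. Pool ranges of neighbours in this order overlapped: Slc1a3 spanned 47.0 to 362 CPM per kb and Slc1a2 25.9 to 214, so the order is that of the medians. Length here is that of all annotated exons merged, not of the transcripts expressed. In CPM not divided by length, the median pools of Slc1a2 and Slc1a3 were close, at 1703 and 1696 CPM. Per length, Slc1a3 exceeded Slc1a2 in 14 of 16 pools. The exceptions were the pools without a gRNA of batch 1 (ratio 0.965) and batch 3 (0.797), and the ratio was highest, at 3.77, in batch 2 with both gRNAs. Both transporters had reads in 227 of 240 cells and neither in 2, and 60 cells had reads of all 7 members (median 6). No in-slice control had all 7 (median 4).

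**Figure D2:**
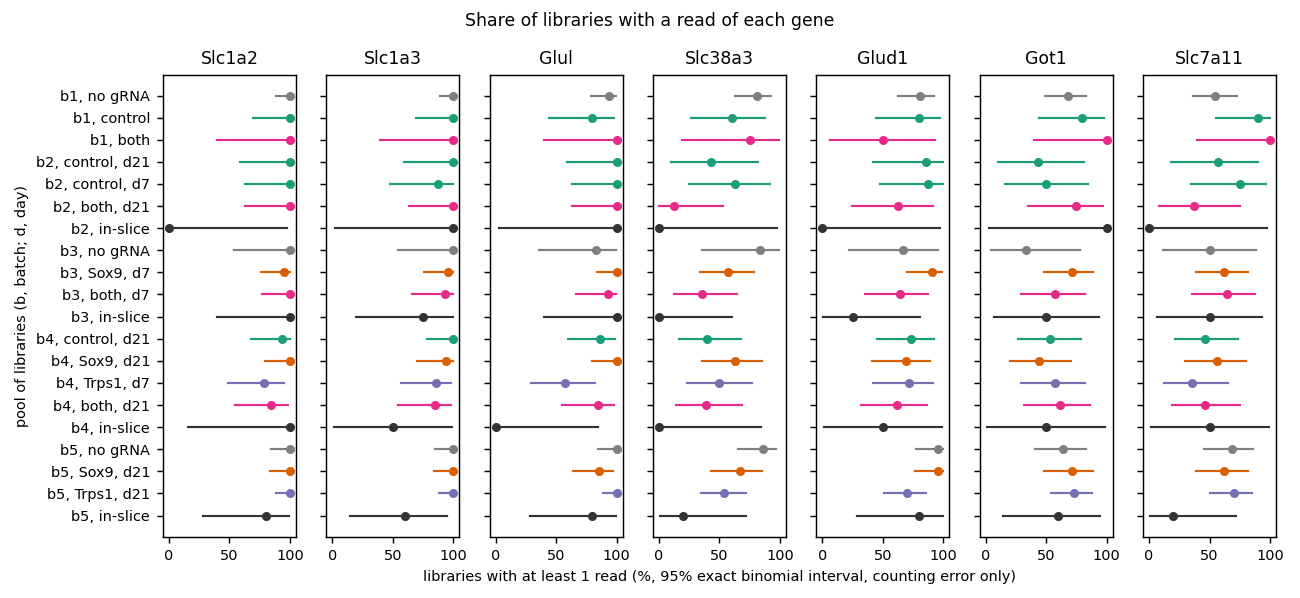
Percentage of libraries with at least 1 read of each member by pool, with exact binomial (Clopper-Pearson) 95% intervals that cover counting error only. The transporters are near 100% in most pools, Slc38a3 spreads from 12.5% to 86.4%, and the in-slice controls lack Slc38a3 in 11 of 12 libraries.

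Slc1a2 encodes GLT-1, the main glutamate transporter of the adult forebrain (ENSMUSG00000005089, chromosome 2, 102658659 to 102790784, plus strand, 20 merged exons; Gm13872 overlaps it on the opposite strand, and the sources used here do not say whether counting used strand). It had reads in 233 of 240 astrocytes, of which 123 stood at 1000 CPM or more. Reads were also found in 10 of 12 in-slice controls, but there at 305 CPM or less. The highest pool was batch 1 without a gRNA at 2811 CPM (2793 to 2829.5) and the lowest was batch 4 with both gRNAs at 339.7 CPM (331 to 349). Cells without a gRNA formed the highest pool of batch 1, at 2811 CPM, and of batch 3, at 2772 CPM, and lay between the other pools in batch 5, at 2091 CPM.

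Batch 1 cells without a gRNA spanned 7.81 to 8305 CPM per cell (median 2512), and those with control gRNA 60.6 to 2245 CPM per cell (median 751) with a pooled level of 884 CPM (867 to 902). The control gRNA pool was lower at a log2 ratio of -1.66 (-1.81 without the highest cells). The 4 cells with both gRNAs held 531, 8783, 3107 and 1163 CPM, pooled 2449 CPM (2408 to 2491), a ratio to control of 1.46 that was 0.96, inside the fold, without the cell at 8783 CPM. In batch 3 the pool with both gRNAs stood at 975 CPM (962 to 988), with 25.7 to 5022 CPM per cell (median 787). Cells without a gRNA there gave 501 to 4029 CPM per cell (median 2027), and the ratio between these pools was -1.50. With Sox9 gRNA alone the level was 1919 CPM (1903 to 1934), a ratio of -0.53 to no gRNA that is inside the fold. Its title series, cells whose sample titles share a beginning, differed. They held 1218 CPM over 13 cells (7S) and 3069 CPM over 8 (7S2). Batch 4 placed Sox9 gRNA highest at 1674 CPM (1655 to 1694, cells from 5.33 to 7711 with median 1183) and control gRNA next at 1020.0 CPM (1005 to 1035, cells from 0 to 2777 with median 671). Trps1 gRNA at day 7 held 537 CPM (526 to 548, cells from 0 to 2465 with median 79.2), and both gRNAs 0 to 1033 CPM per cell (median 113). The pool with both gRNAs was past the fold below control (ratio -1.57) and below Sox9 gRNA (ratio of Sox9 gRNA to both 2.28). In batch 5 no whole pool was past the fold: 2091 CPM (2069 to 2113) without a gRNA, 1828 CPM (1808 to 1848) with Sox9 gRNA and 2177 CPM (2159 to 2195) with Trps1 gRNA, with ratios of -0.19 and 0.06 to no gRNA. The title series of Trps1 gRNA there differed, at 1756.5 CPM in 21T, 3762 in 21T2 and 1026 in 21T3.
In batch 2 the control gRNA pools held 1204 CPM (1187 to 1222) at day 21 and 1732 CPM (1713 to 1751) at day 7, and both gRNAs 961 CPM (947 to 974). A single cell carried 55.4% of the Slc1a2 reads of the day 21 control pool, and without the highest cells the pools stood at 609.7 and 626 CPM (ratio -0.32 with them and 0.04 without).

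Slc1a3 encodes GLAST, the transporter that marks astrocytes and radial glia (ENSMUSG00000005360, chromosome 15, 8634124 to 8710764, minus strand, 13 merged exons; Gm37310 overlaps it on the same strand). It had reads in 232 of 240 astrocytes, 127 of them at 1000 CPM or more, and in 8 of 12 in-slice controls, at up to 410.3 CPM. The pool extremes were 3090.4 CPM (3044 to 3138) in batch 1 with both gRNAs and 401 CPM (391 to 411) in batch 4 with both gRNAs, so the same label gave the highest and the lowest level. In batch 1 the 4 cells with both gRNAs held 1450.4, 6691, 2469 and 4065 CPM. Control gRNA gave 1629 CPM (1605 to 1653) with 1.04 to 5165 CPM per cell (median 644), and no gRNA 1763 CPM (1748 to 1778) with 0.850 to 9287 CPM per cell (median 1419.8). Both batch 1 ratios were inside the fold, at 0.92 for both gRNAs to control (1.33 without the highest cells) and -0.11 for control to no gRNA.
Batch 2 with both gRNAs stood at 2352 CPM (2331 to 2373, cells from 7.31 to 5219 with median 2375) against 1133 CPM (1116 to 1150.4, cells from 0.680 to 2846 with median 867) with control gRNA at day 21. That ratio of 1.05 was past the fold upward. Batch 4 gave the opposite: 0 to 1851 CPM per cell (median 69.4) with both gRNAs against 1865 CPM (1846 to 1885) with control gRNA (cells from 2.85 to 13798 with median 562), a ratio of -2.20. The highest control cell, at 13798 CPM, carried 18.4% of that pool's Slc1a3 reads, and without the highest cells the ratio was -2.84. Sox9 gRNA held 1242 CPM (1226 to 1259) and Trps1 gRNA 726 CPM (713 to 739). Within Sox9 gRNA of batch 4 the 2 title series differed, at 248 CPM over 6 cells and 1818 CPM over 10, and the first of these alone was below both gRNAs (ratio -0.68). The whole pools of batch 3 and batch 5 stayed inside the fold, at 1436, 2028 and 1457 CPM for no gRNA, Sox9 gRNA and both gRNAs in batch 3. The title series of Sox9 gRNA in batch 3 differed, at 1126.5 CPM over 13 cells (7S) and 3509 CPM over 8 (7S2). In batch 5 the levels were 2993 CPM for no gRNA, 2417 for Sox9 gRNA and 2531 for Trps1 gRNA.

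**Figure D3:**
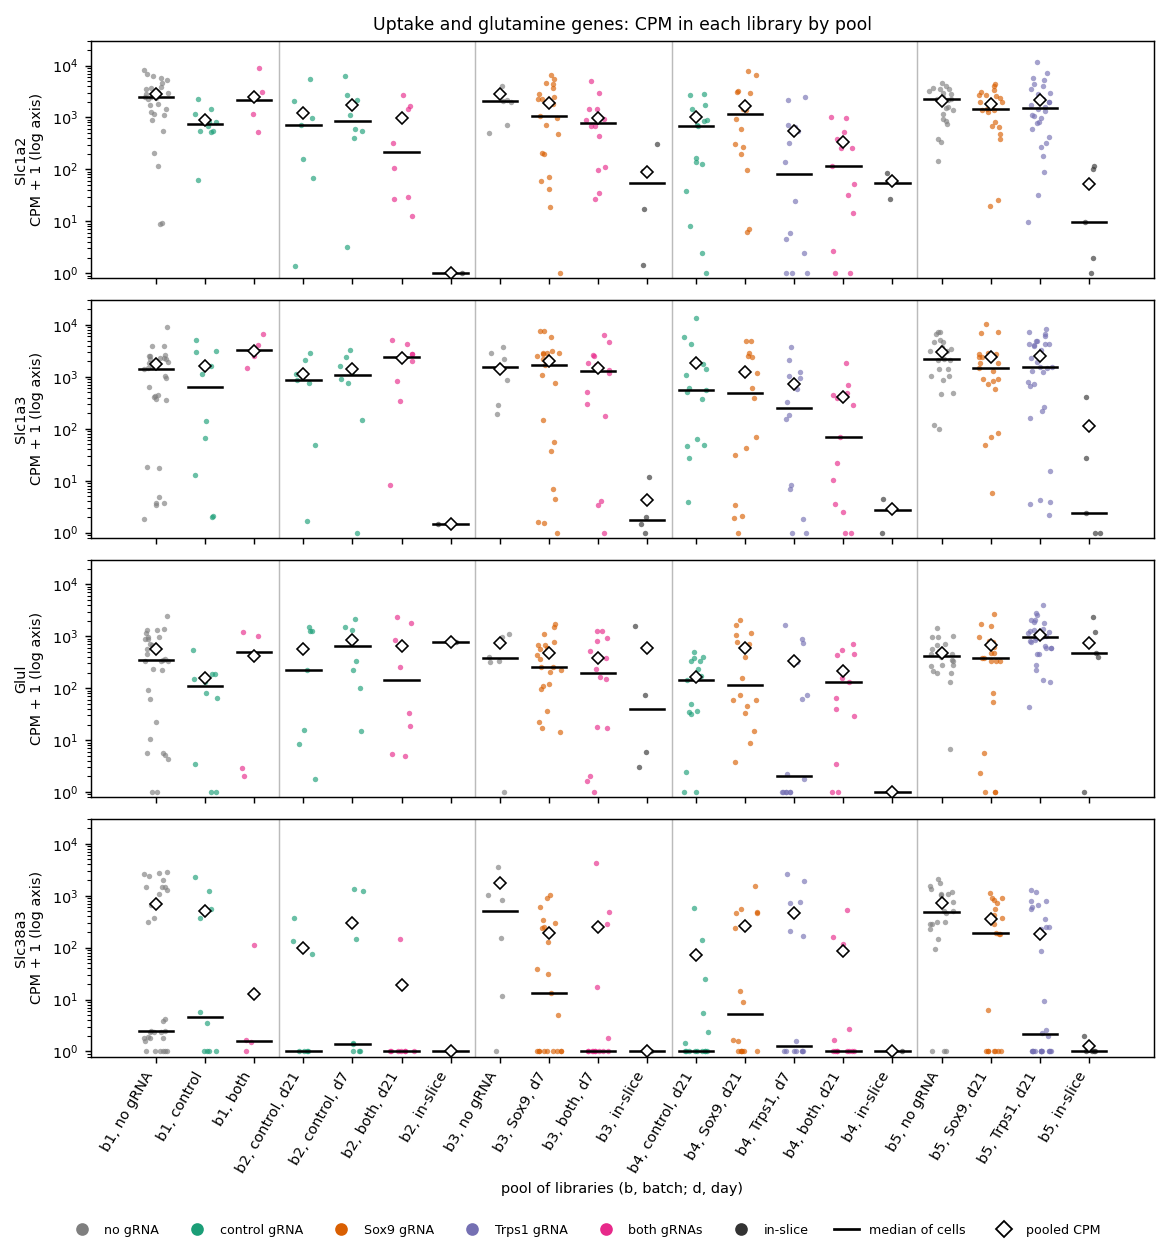
CPM of Slc1a2, Slc1a3, Glul and Slc38a3 in each library (points), by pool, on a log axis of CPM + 1, with the median of the libraries (black bar) and the pooled level (diamond). Most cells carry 100 CPM or more of both transporters in most pools, whereas Slc38a3 splits into cells at 0 or a few CPM and cells at 100 CPM or more.

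Glul encodes glutamine synthetase, which joins ammonia to glutamate (ENSMUSG00000026473, chromosome 1, 153899944 to 153909723, plus strand, 10 merged exons). Reads were found in 221 of 240 astrocytes. The in-slice controls held it too, in 9 of 12 libraries with pools of 0 to 776 CPM and 1 library at 2303 CPM. Some whole astrocyte pools lay below the in-slice pool of their batch. In batch 2 it stood at 776 CPM (1 library, labelled day 7), above control gRNA and both gRNAs, both at day 21. Control gRNA at day 7, the pool of the same day, was above it at 858 CPM. The in-slice pool of batch 3 held 597 CPM (33.9 without its highest library), above Sox9 gRNA and both gRNAs, and that of batch 5 held 752 CPM (388 without its highest), above no gRNA and Sox9 gRNA. In batch 4 it had no read. Near-identical copies exist (Glns-ps1 over 1126 nt at 96.8% identity, AC134576.3 over 1122 nt at 93.0%, AC162035.3 over 597 nt at 90.5%), and Mir8114 and Teddm2 overlap the gene, so its level is uncertain by the reads these share. Batch 5 with Trps1 gRNA was the highest pool at 1049.5 CPM (1037 to 1062, cells from 42.8 to 4085 with median 949), with reads in 30 of 30 cells. Cells without a gRNA held 481 CPM (471 to 492, cells from 5.77 to 1415 with median 425) and Sox9 gRNA 677 CPM (664 to 689, cells from 0 to 2728 with median 373). The Trps1 gRNA pool was higher than no gRNA at a ratio of 1.12, or 1.04 with the 3 copies added and 0.99, inside the fold, with both libraries of the near-identical pair counted. Sox9 gRNA was higher by 0.49, inside the fold.
In batch 4, Glul stood at 161 CPM (155 to 167) with control gRNA (cells from 0 to 505 with median 145) and 606 CPM (594 to 617) with Sox9 gRNA (cells from 2.81 to 2102 with median 114). The ratio was 1.88, although the median cell with Sox9 gRNA was the lower of the 2. Both gRNAs held 211 CPM (204 to 218), so Sox9 gRNA was also higher than both (ratio 1.502). Trps1 gRNA at day 7 gave 333 CPM (324 to 342) with reads in 8 of 14 cells (cells from 0 to 1672 with median 1.003). Its ratio to control of 1.03 was 0.50 without the highest cells and -1.30 as a difference of mean log2 values over cells, the opposite direction. Batch 1 with control gRNA was the lowest pool, at 158 CPM (151 to 166, cells from 0 to 542 with median 107) against 563 CPM (554 to 571) without a gRNA (cells from 0 to 2404 with median 346), a ratio of -1.80. The 4 cells with both gRNAs held 1206, 999, 1.06 and 1.92 CPM, and 2 of them carry nearly all the reads. Their ratio to control of 1.39 was 0.52 without the highest cells and -0.17 without cell 1. Batch 2 (560.0, 858 and 636 CPM for control day 21, control day 7 and both gRNAs) and batch 3 (739.6, 481 and 387 CPM for no gRNA, Sox9 gRNA and both gRNAs) stayed inside the fold.

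Slc38a3 encodes SNAT3 (SN1), the system N carrier through which astrocytes release glutamine (ENSMUSG00000010064, chromosome 9, 107650634 to 107669530, minus strand, 17 merged exons). Cells fell into 2 ranges: 98 of 240 had no read and 34 were under 10 CPM, only 10 lay between 10 and 100 CPM, and 98 stood at 100 CPM or more. A single in-slice control had a read, at 1.001 CPM. Batch 5 held 711 CPM (699 to 724) with 19 of 22 cells (86.4%, 65.1 to 97.1%) without a gRNA, 363 CPM (354 to 372) with 14 of 21 cells (66.7%, 43.0 to 85.4%) for Sox9 gRNA, and 181 CPM (176 to 186) with 16 of 30 cells (53.3%, 34.3 to 71.7%) for Trps1 gRNA. With each cell thinned to 100000 reads, and shallower cells left out, these became 19 of 22, 14 of 21 and 13 of 30 cells. Median cells stood at 483, 192 and 1.13 CPM, and the highest at 2137, 1119.8 and 1312. Trps1 gRNA was lower than no gRNA at a ratio of -1.94, and Sox9 gRNA was lower by a ratio of -0.96, just inside the fold. The 2 title series of cells without a gRNA in batch 5 differed, at 1034 and 418 CPM.
The lowest pool was batch 1 with both gRNAs, whose 4 cells held 0, 109, 0.531 and 0.640 CPM, against 514 CPM (501 to 528) with control gRNA (6 of 10 cells) and 687 CPM (678 to 696) without a gRNA (25 of 31 cells). Both gRNAs to control was -4.97 (-5.94 without the highest cells). Batch 2 with both gRNAs had reads in 1 of 8 cells, at 147 CPM in that cell, against 3 of 7 with control gRNA at day 21 and 5 of 8 at day 7 (pools 17.8, 95.3 and 298 CPM). The ratio to control was -2.14, and without that cell the pool with both gRNAs is at 0. In batch 3 the level without a gRNA, 1793 CPM (1747 to 1839), came for 91.1% from 1 cell and was 301 CPM without it. Sox9 gRNA held 194 CPM (189 to 199) in 12 of 21 cells, lower than no gRNA at -3.18, or -1.01 without the highest cells. Both gRNAs held 247 CPM (240.2 to 254) in 5 of 14 cells, and 55.1 CPM without the highest cell. The title series of that pool differed, at 527 CPM with reads in 4 of 7 cells (7ST) and 0.0880 CPM with reads in 1 of 7 (7ST2). In batch 4, Trps1 gRNA at day 7 held 467 CPM (457 to 478) in 7 of 14 cells and Sox9 gRNA 258 CPM (250.2 to 265) in 10 of 16. Both were above control gRNA, at 72.4 CPM (68.5 to 76.4) in 6 of 15 cells, with ratios of 2.61 and 1.76. No other batch has a pool with Sox9 gRNA or Trps1 gRNA beside one with control gRNA. Both gRNAs held 85.0 CPM in 5 of 13 cells, a ratio to control of 0.22 that is inside the fold. Without the highest cells the batch 4 pools held 317 CPM with Trps1 gRNA, 169 with Sox9 gRNA, 18.8 with control gRNA, where 1 cell carried 76.6% of the reads, and 28.7 with both. The ratios to control were then 3.76 for Trps1 gRNA and 2.88 for Sox9 gRNA. Thinned as above, cells with a read in batch 1 were 4 of 10 with control gRNA and 1 of 4 with both. They were 3 of 7, 3 of 8 and 1 of 8 in batch 2 (control day 21, control day 7, both), and 3 of 3, 11 of 21 and 3 of 14 in batch 3 (no gRNA, Sox9 gRNA, both). Batch 4 had 4 of 15 with control gRNA, 7 of 16 with Sox9 gRNA, 6 of 14 with Trps1 gRNA and 3 of 13 with both. Batch 1 without a gRNA went from 25 of 31 cells before thinning to 14 of 31 after it. Against no gRNA all 5 Slc38a3 ratios were below 0 (3 of them past the fold), and against control gRNA in batch 4 all 3 were above 0 (2 past the fold).

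Glud1 encodes mitochondrial glutamate dehydrogenase (ENSMUSG00000021794, chromosome 14, 34310727 to 34345265, plus strand, 15 merged exons), and shares 656 nt at 97.6% identity with Glud-ps. It had reads in 187 of 240 astrocytes and in 6 of 12 in-slice controls, 1 of which stood at 575 CPM. The pool with both gRNAs was the lowest of its batch in batch 2 at 96.4 CPM (92.2 to 101), batch 3 at 103 CPM (98.6 to 107) and batch 4 at 31.8 CPM (29.1 to 34.6). In batch 4 those cells spanned 0 to 108 CPM per cell (median 7.39), against 307 CPM (299 to 315, cells from 0 to 1072 with median 157) with control gRNA and 257 CPM (249.5 to 265, cells from 0 to 794 with median 141) with Sox9 gRNA. Both gRNAs to control was -3.09 and Sox9 gRNA to both 2.83. In batch 2 both gRNAs gave 0 to 251 CPM per cell (median 26.6) against 401 CPM (391 to 411, cells from 0 to 1601 with median 252) with control gRNA at day 21, a ratio of -2.003. In batch 3 both gRNAs gave 0 to 552 CPM per cell (median 11.5), lower than no gRNA at 296 CPM (278 to 315) by a ratio of -1.48 (-2.08 without the highest cells) and than Sox9 gRNA at 268 CPM (262 to 274) by a ratio of -1.34. Batch 1 was the exception to this order: control gRNA was the lowest pool at 133 CPM (126 to 139.5), a ratio of -1.57 to the 405 CPM (398 to 412) without a gRNA, and the pool with both gRNAs stood at 193 CPM. Its 4 cells held 573, 404, 0 and 0 CPM, inside the fold of control. Trps1 gRNA at day 7 in batch 4 was also low, at 53.5 CPM (50.1 to 57.1, cells from 0 to 335 with median 3.63), with a ratio of -2.41 to control. In batch 5 the levels of 286, 323 and 189 CPM for no gRNA, Sox9 gRNA and Trps1 gRNA were inside the fold. Title series within these pools differed, at 270.5, 264 and 90.8 CPM for Trps1 gRNA (21T, 21T2, 21T3). Without a gRNA they held 403 CPM (2AG) and 157 CPM (AG). The astrocyte markers moved in the same direction in batches 3 and 4, from 3376 CPM with control gRNA to 772 with both in batch 4 and from 7238 without a gRNA to 4203 with both in batch 3, but not in batch 2 (4898 with control gRNA and 8662 with both). Their part in the result was not tested.

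Got1 encodes cytosolic aspartate transaminase, which moves amino groups between glutamate and aspartate (ENSMUSG00000025190, chromosome 19, 43499752 to 43524605, minus strand, 9 merged exons). It had reads in 153 of 240 astrocytes, with 87 cells at 0, 50 under 10 CPM and 72 between 100 and 1000 CPM. In-slice controls held it in 7 of 12 libraries and at up to 991 CPM, and the batch 3 in-slice pool of 382 CPM was above every astrocyte pool. A single library, which held 54236 CPM of microglia and macrophage markers, carried 93.0% of those reads. Without it the pool held 41.4 CPM, against 77.9 CPM with Sox9 gRNA, 82.1 with both gRNAs and 9.11 without a gRNA, each without its highest cell. Batch 1 had the lowest pool, 46.4 CPM (44.1 to 48.9) without a gRNA (cells from 0 to 602 with median 1.93), and higher ones with control gRNA at 269 CPM (259.6 to 279, cells from 0 to 779 with median 125; ratio 2.41) and with both gRNAs, where cells held 195, 5.38, 1.06 and 922 CPM. No in-slice control of batch 1 was labelled. The other Got1 ratios past the fold with all cells turned on 1 library. In batch 3 without a gRNA 1 of 6 cells held 98.2% of the reads, and the pool of 269.9 CPM (252 to 288) was 9.11 CPM without it. The ratios to it of -1.02 for Sox9 gRNA and -1.08 for both gRNAs were then 2.56 and 2.63. A cell at 5682 CPM with Trps1 gRNA in batch 4 was the highest of all. Sox9 gRNA and both gRNAs stood at 131 and 125 CPM in batch 3. Batch 4 held 157 CPM with control gRNA, 91.0 with Sox9 gRNA, 124 with both and 264 with Trps1 gRNA at day 7. Leaving out the highest cell of each gave 121, 42.7, 43.4 and 129 CPM. The ratios to control, inside the fold at -0.76 for Sox9 gRNA and -0.33 for both gRNAs, were then -1.40 and -1.38, and that of both gRNAs to control in batch 1 turned from 0.23 to -1.42. The remaining pools were 90.4, 84.1 and 82.2 CPM in batch 2 (control day 21, control day 7, both), and 189.6, 104 and 171 CPM in batch 5 (no gRNA, Sox9 gRNA, Trps1 gRNA). With all cells Got1 was inside the fold in 11 of 14 comparisons.

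Slc7a11 encodes xCT, the light chain of the cystine/glutamate exchanger (ENSMUSG00000027737, chromosome 3, 49892526 to 50443614, minus strand, 13 merged exons). An annotated transcript of it resembles alpha tubulin genes (585 nt of Tuba1b at 92.5% identity), and 5 predicted genes overlap it, so its reads may be shared. It had reads in 144 of 240 astrocytes, 51 of them under 10 CPM, and in-slice controls never passed 2.85 CPM. Pools spanned 3.17 CPM (2.37 to 4.14) in batch 4 with both gRNAs to 566 CPM (546 to 586) in batch 1 with both gRNAs, the widest span of the 7 members. The 4 cells of that batch 1 pool held 4.17, 23.3, 592 and 1246 CPM, against 57.9 CPM (53.5 to 62.6) with control gRNA (cells from 0 to 249 with median 13.3; ratio 3.18) and 72.6 CPM (69.7 to 75.6) without a gRNA. In batch 3 both gRNAs gave 274 CPM (267 to 281, cells from 0 to 2078 with median 3.08) and Sox9 gRNA 103 CPM (99.0 to 106, cells from 0 to 1269.7 with median 2.33), above 15.5 CPM (11.5 to 20.3) without a gRNA, at ratios of 3.77 and 2.39. Without the highest cell the 3 pools held 126, 29.5 and 2.40 CPM. Batch 5 with Trps1 gRNA stood at 232 CPM (226 to 238, cells from 0 to 1616 with median 63.1) against 78.3 CPM (74.1 to 82.6) without a gRNA (cells from 0 to 453 with median 57.1), a ratio of 1.51. Its 3 title series differed, at 561, 292 and 41.6 CPM, and the last alone was below no gRNA (ratio -0.84). Sox9 gRNA in batch 5 held 110.4 CPM (105 to 115).
The batches disagreed on both gRNAs against control at day 21. Batch 4 gave 3.17 CPM with both gRNAs against 126 CPM (121 to 131) with control gRNA (cells from 0 to 719 with median 0), a ratio of -4.00, with Sox9 gRNA at 35.6 CPM (32.8 to 38.5) and Trps1 gRNA at day 7 at 32.7 CPM (30.03 to 35.5) also lower than control (ratios -1.69 and -1.79). Without the highest cells the batch 4 pools held 2.93 CPM with both gRNAs, 70.4 with control gRNA, 11.8 with Sox9 gRNA and 13.6 with Trps1 gRNA. The ratios to control were then -3.25, -2.17 and -2.02 for both gRNAs, Sox9 gRNA and Trps1 gRNA. Batch 2 gave 56.6 CPM (53.4 to 59.9) with both gRNAs against 3.82 CPM (2.89 to 4.94), a ratio of 2.804. There 1 of 8 cells carried 84.2% of the reads, and without the highest cells the pool with both gRNAs was at 9.83 CPM, under the minimum. Control gRNA at day 7 in batch 2 held 146 CPM (141 to 152), so day 21 was lower at a ratio of -4.10 (60.6 CPM at day 7 and a ratio of -3.47 without the highest cells).

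**Figure D4:**
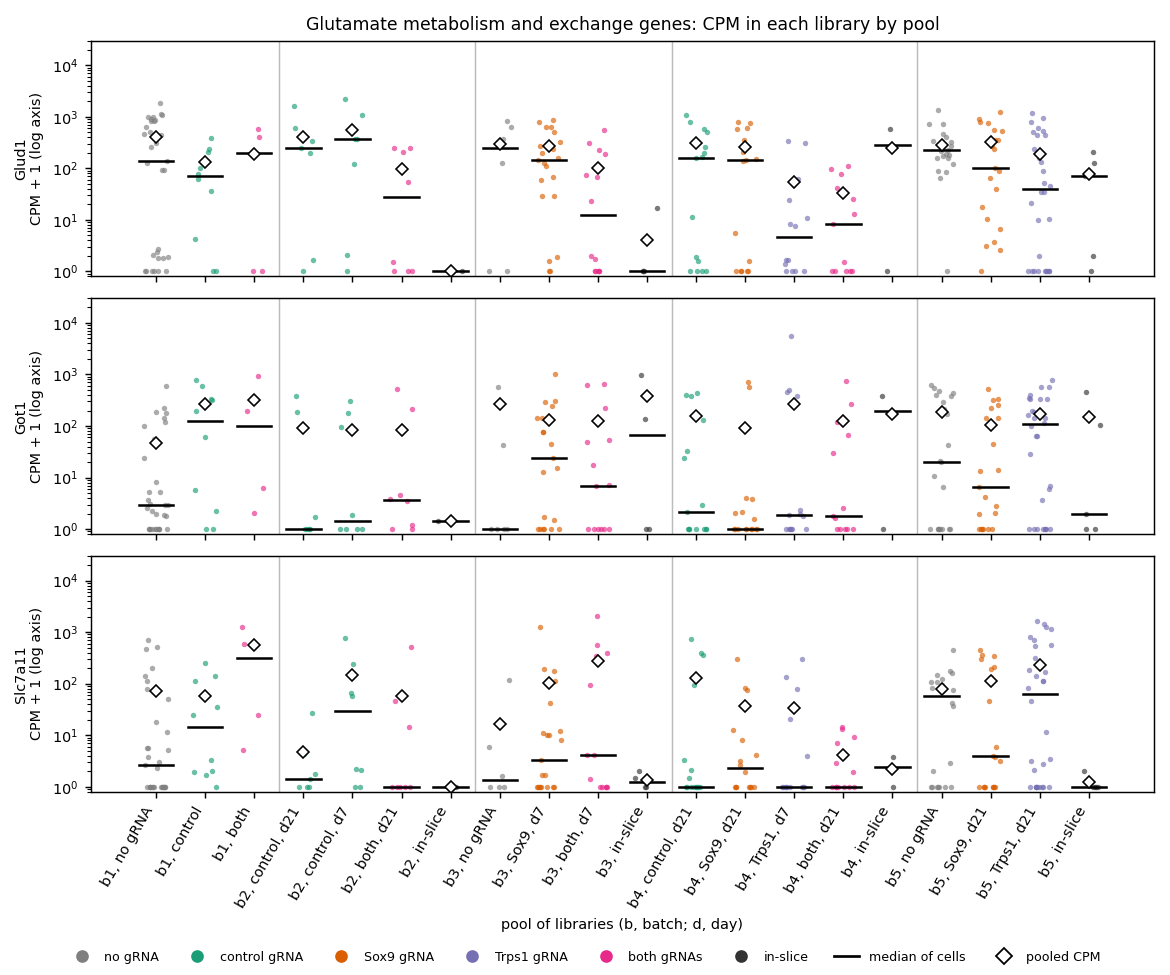
CPM of Glud1, Got1 and Slc7a11 in each library (points), by pool, on a log axis of CPM + 1, with the median of the libraries (black bar) and the pooled level (diamond). Many cells sit at 0 in each panel, and the diamond lies far above the bar where a few cells carry the reads, as for Got1 in batch 3 without a gRNA.

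Across the 14 within-batch comparisons, 46 of 98 member ratios were past the fold, 40 of them also without the highest cells. Slc7a11 passed in 12 comparisons, Slc38a3 in 9, Glud1 in 7, Glul in 6, Slc1a2 in 5, Slc1a3 in 4 and Got1 in 3. Taken as first pool over second, Glud1 was lower in 6 of its 7 and Glul higher in 5 of its 6. Slc1a2 (2 higher, 3 lower), Slc1a3 (2 and 2), Slc38a3 (3 and 6) and Slc7a11 (7 and 5) went both ways. The comparisons differ in gRNA, day, reference and order of pools, so these tallies give no common direction. The only higher Glud1 ratio (2.83) is Sox9 gRNA over both gRNAs in batch 4, which also gave higher ratios of Slc1a2 (2.28) and Slc1a3 (1.62). Comparisons that share a pool are not independent. These counts stand against a wide background, since between 42.2% and 84.4% of all genes tested were past the fold in a comparison. Another scaling, by median-of-ratios size factors, would shift all ratios of a comparison together. The shift lay between -1.16 (batch 3, Sox9 gRNA against no gRNA) and 0.66 (batch 4, Sox9 gRNA against control). This scaling reversed the direction of no member ratio past the fold, but it carried ratios across the fold. In batch 5, Trps1 gRNA against no gRNA, a shift of -0.415 takes Glul, at 1.12, inside it. The count for Sox9 gRNA against no gRNA in batch 3 was 6 in place of 3.

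In batch 1 the cells with control gRNA held less Slc1a2, Glul and Glud1 and more Got1 than the cells without a gRNA, while Slc1a3, Slc38a3 and Slc7a11 stayed inside the fold. So 4 of 7 members were past the fold where 67.2% of 8166 genes were, Got1 higher (background 40.2%) and Slc1a2, Glul and Glud1 lower (background 27.1%). The count was 4 of 7 also without the highest cells, against 34.8% of genes. The members' median ratio was -0.41 and that of all genes 0.44. Microglia and macrophage markers differed between these pools, with all 8 read in both and sums of 0 to 3399.5 CPM per cell without a gRNA and 7.04 to 22971 CPM with control gRNA. Of the 30 other genes of the pathway, chosen as carriers, enzymes and receptors, 22 reached 20 CPM and 6 were past the fold higher and 9 lower (5 and 9 without the highest cells; list median -0.78). The glutamine carrier Slc38a1 stood at 135 against 2.73 CPM. Pcx, which replenishes the citric acid cycle, stood at 0.271 against 82.9 CPM and the mitochondrial glutamate carrier Slc25a18 at 36.0 against 632 CPM.
For both gRNAs against control in batch 1, 4 of 7 were past the fold against 84.4% of genes: Slc1a2, Glul and Slc7a11 higher (28.9%) and Slc38a3 lower (55.5%), and 3 of 7 also without the highest cells, against 30.4% of genes, Glul dropping out. The medians were 0.92 for members and -2.28 for all genes. The labelled days of these pools do not overlap (8 to 16 with control gRNA, 17 to 20 with both), so by label gRNA and day cannot be told apart. The pool with both gRNAs has 4 cells, and of the pathway list 6 were past the fold higher and 9 lower (4 and 8 without the highest cells).

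In batch 2 the pool with both gRNAs held more Slc1a3 and less Glud1 and Slc38a3 than control gRNA at day 21, while Slc1a2, Glul and Got1 stayed inside the fold. With Slc7a11, 4 of 7 members were past the fold against 74.2% of genes, Slc1a3 and Slc7a11 higher (31.6%) and Slc38a3 and Glud1 lower (42.6%). The count was 3 of 7 also without the highest cells, against 24.1% of genes, with Slc7a11 dropping out. The members' median was -0.13, with -0.46 for all genes. Of the pathway list 6 were past the fold higher and 3 lower (4 and 2 without the highest cells), among them Slc25a18 at 159 against 11.2 CPM and Slc38a1 at 0.193 against 95.8 CPM. Between day 21 and day 7 of control gRNA, 2 of 7 passed against 69.5% of genes, Slc38a3 and Slc7a11, both lower at day 21 (37.5%) and none higher (32.1%), with 2 of 7 also without the highest cells, against 27.1% of genes. All 7 ratios but that of Got1 were below 0 here. The astrocyte markers summed to 8145 CPM at day 7 and 4898 CPM at day 21, the microglia and macrophage markers to 3923 and 5640.4 CPM, and their part in the result was not tested. The list had 23 genes at 20 CPM, of which 6 were past the fold higher and 13 lower (4 and 9 without the highest cells), with the receptor Grm3 at 226 against 5.005 CPM and the receptor Grm5 at 1.21 against 70.9 CPM.

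In batch 3 both pools with a gRNA held more Slc7a11 and less Slc38a3 than cells without one, and the pool with both gRNAs also less Slc1a2 and Glud1. Over whole pools in CPM, Slc1a3 and Glul were inside the fold throughout, although the title series of Sox9 gRNA differed for Slc1a3. Median-of-ratios scaling shifts the comparisons with no gRNA by -1.16 for Sox9 gRNA and -1 for both gRNAs. Glul, at -0.62 and -0.92 there, would then be past the fold. For Sox9 gRNA against no gRNA, 3 of 7 were past the fold against 77.0% of genes, Slc7a11 higher (61.8%) and Slc38a3 and Got1 lower (15.2%). With both gRNAs against no gRNA, 5 of 7 passed against 79.4%: Slc7a11 higher (61.6%) and Slc1a2, Slc38a3, Glud1 and Got1 lower (17.9%). Got1 dropped out of both, leaving 2 of 7 also without the highest cells, against 48.0% of genes, for Sox9 gRNA, and 4 of 7 also without the highest cells, against 41.3% of genes, for both gRNAs. The members' medians were -0.53 and -1.08 where all genes had 1.69 and 1.75. The pool without a gRNA had 6 cells, 3 of them under 100000 reads, and its microglia and macrophage markers (0 to 433 CPM per cell) were below those with Sox9 gRNA (0.556 to 33392) and both gRNAs (1.73 to 24066). Both gRNAs against Sox9 gRNA, which avoids that pool, had 2 of 7 past the fold against 48.0%, Slc7a11 higher (22.8%) and Glud1 lower (25.2%), and 2 of 7 also without the highest cells, against 24.3% of genes. Slc38a3 turned from 0.34 to -1.33 without the highest cells. In the pathway list 8 were past the fold higher and 7 lower (6 and 6 without the highest cells) for both gRNAs against no gRNA, with the glutamine carrier Slc38a2 at 209 against 6.37 CPM and the transaminase Gpt2 at 179.6 against 1.21 CPM. For Sox9 gRNA against no gRNA 10 were past the fold higher and 8 lower (8 and 4 without the highest cells), and for both gRNAs against Sox9 gRNA 3 were past the fold higher and 8 lower (3 and 6 without).

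Batch 4 at day 21 had its lowest levels of both uptake transporters, Glud1 and Slc7a11 in the pool with both gRNAs. Sox9 gRNA alone was lower than control for Slc7a11, and higher for Glul and Slc38a3. For both gRNAs against control, 4 of 7 members were past the fold against 58.7% of genes, and all 4 were lower (38.8%; 19.9% of genes were higher): Slc1a2, Slc1a3, Glud1 and Slc7a11. The count was 4 of 7 also without the highest cells, against 23.1% of genes. The members' median was -1.57 and that of all genes -0.49. None of the 30 pathway genes was past the fold higher and 13 were lower (6 without the highest cells; list median -2.03), among them the sodium pump subunit Atp1b2 at 124 against 1218 CPM. The 10 astrocyte markers, all read in both pools, summed to 0.775 to 8414 CPM per cell with both gRNAs and 2.205 to 13151 CPM with control gRNA, and their pooled sum was 772 against 3376 CPM. The part of this in the members' levels was not tested. Sox9 gRNA against both gRNAs had 6 of 7 past the fold, all higher (65.9% of genes in either direction and 34.7% higher), every member but Got1. Slc7a11 dropped out, for 5 of 7 also without the highest cells, against 27% of genes. The medians were 1.62 for members and 0.12 for all genes. Astrocyte markers stood at 4508 CPM with Sox9 gRNA. Of the list 10 were past the fold higher and 2 lower (7 and 0 without the highest cells), with Atp1b2 at 958 against 124 CPM.
Sox9 gRNA against control had 3 of 7 past the fold against 65.8%, Glul and Slc38a3 higher (26.1%) and Slc7a11 lower (39.7%), and 3 of 7 also without the highest cells, against 27% of genes. Microglia and macrophage markers summed to 3657 CPM with Sox9 gRNA and 7942 with control gRNA, all 8 read in both, with 2.202 to 14432 and 68.3 to 14997 CPM per cell. Of the list 5 were past the fold higher and 8 lower (2 and 4 without the highest cells). Trps1 gRNA at day 7 against control at day 21 had 5 of 7 past the fold against 64.8%, Glul and Slc38a3 higher (34.9%) and Slc1a3, Glud1 and Slc7a11 lower (29.9%). Here gRNA and day cannot be told apart. Glul dropped out, for 4 of 7 also without the highest cells, against 24.5% of genes. With both libraries of the near-identical pair counted the count was also 5, with Slc1a2 joining at -1.06 and Glul leaving at 0.83, and the other members at -1.55 for Slc1a3, 2.71 for Slc38a3, -2.59 for Glud1, 0.54 for Got1 and -1.96 for Slc7a11. The astrocyte markers of this pool summed to 2145 CPM (86.7 to 10718 per cell), and of the pathway list 6 were past the fold higher and 9 lower (2 and 5 without the highest cells).

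Batch 5 is the batch in which each pool has 21 or more cells. Over whole pools its uptake transporters, Glud1 and Got1 were inside the fold, although title series of Trps1 gRNA differed for Slc1a2 and Glud1. The pool with Trps1 gRNA held more Glul and Slc7a11 and less Slc38a3 than cells without a gRNA. No member was past the fold for Sox9 gRNA against no gRNA, where 42.8% of 8119 genes were (0 of 7 also without the highest cells, against 25% of genes). The members' ratios ran from -0.96 for Slc38a3 to 0.49 for Glul (median -0.19, all genes 0.15). As a difference of mean log2 values over cells 3 members passed. Trps1 gRNA against no gRNA had 3 of 7 past the fold against 43.6%, Glul and Slc7a11 higher (31.5%) and Slc38a3 lower (12%), and 3 of 7 also without the highest cells, against 27.2% of genes. It was 2 of 7 with both libraries of the near-identical pair counted. The median was -0.14, with 0.48 for all genes. Microglia and macrophage markers, all 8 read in each pool, summed to 0 to 995 CPM per cell without a gRNA, 4.73 to 33366 with Sox9 gRNA and 0.842 to 28979.9 with Trps1 gRNA. Astrocyte markers stood at 8404, 8495 and 11717 CPM. In the pathway list 1 gene was past the fold higher and 6 were lower for Trps1 gRNA against no gRNA (1 and 6 also without the highest cells). The glutathione enzymes Gss at 1.25 against 41.3 CPM and Gclm at 8.46 against 69.6 CPM were among the lower. For Sox9 gRNA against no gRNA 3 were past the fold higher and 4 lower (0 and 2 without the highest cells). Sox9 gRNA against Trps1 gRNA had 1 of 7 past the fold against 42.2%, Slc7a11, lower (27.3%), and 1 of 7 also without the highest cells, against 23.8% of genes. The title series of Trps1 gRNA with the least Slc7a11 gave 1.31 on its own. Slc38a2 stood at 87.9 against 8.16 CPM there and the branched-chain transaminase Bcat1 at 3.10 against 64.2 CPM.

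**Figure D5:**
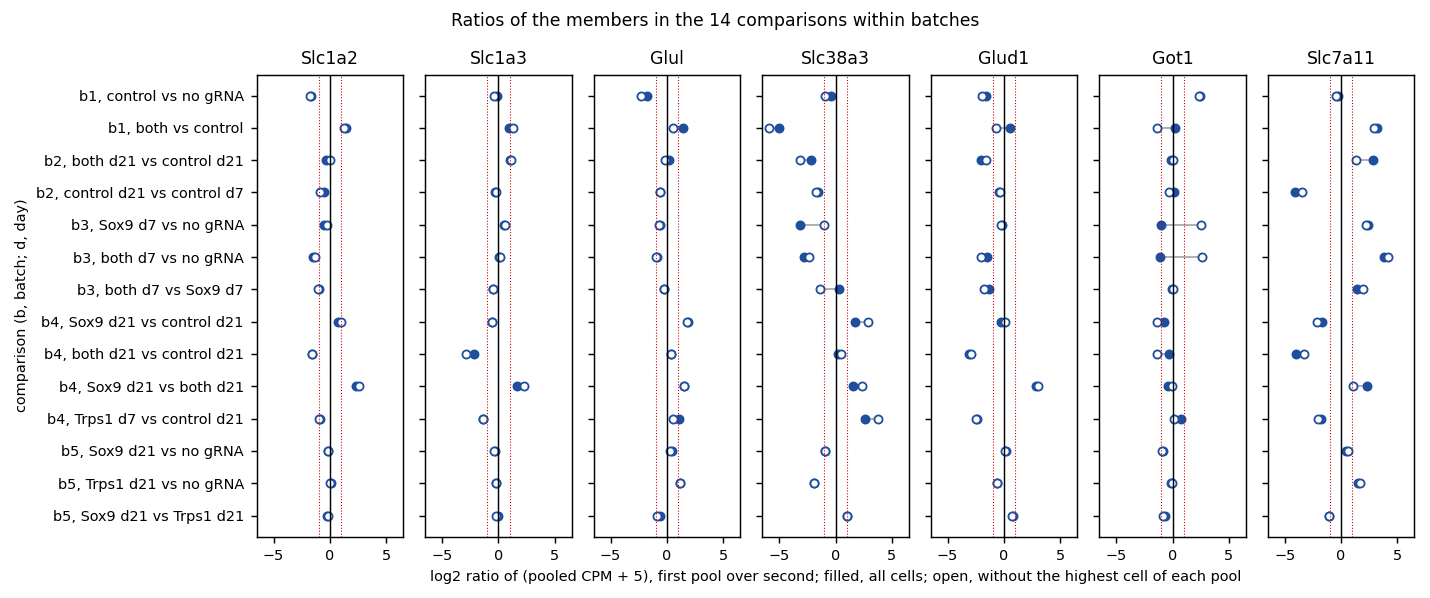
Log2 ratio of pooled CPM + 5 of each member in the 14 within-batch comparisons, with all cells (filled) and without the highest cell of each pool (open), and dotted lines at -1 and 1. In batch 5 most points lie between the lines, and Got1 in batch 3 moves from below -1 to above 2 when the highest cells are left out.

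Within pools, the transporters varied together from cell to cell. Over the 237 astrocytes with 100000 or more reads, log2(CPM + 5) centred on the pool mean gave r = 0.61 for Slc1a2 and Slc1a3, and 0.39, 0.71, 0.75, 0.60 and 0.63 in batches 1 to 5. Slc38a3 followed with 0.44 to each of them and Glul with 0.42 to Slc1a2, while Got1 reached only 0.08 to 0.16 with the other members. Cells share their library's depth and batch, and r with the log2 total ran from -0.05 to 0.23, so these values are descriptions. Among 6729 genes the closest to Slc1a2 were Clu (r = 0.63), Sparcl1 (0.62) and the gap junction gene Gja1 (0.62), and to Slc1a3 Clu (0.62), Slc1a2 (0.61) and Gja1 (0.60). For Slc38a3 the closest included Pla2g7 (0.54) and Gpr37l1 (0.53). Glul was closest to its own copies Glns-ps1 (0.64) and AC134576.3 (0.53) and to S1pr1 (0.55), and Glud1 to its copy Glud-ps (0.53), Aldh1l1 (0.41) and Acsbg1 (0.40). Got1 was closest to Nosip (0.47), Faim2 (0.44) and Matk (0.42). Slc7a11 had the weakest leaders, Syne1 (0.36), Grin2c (0.34) and Slc3a2 (0.34), the last being the heavy chain that carries xCT to the membrane. For comparison, 1 gene in 100 reached r = 0.42 with Slc1a2, 0.39 with Slc1a3, 0.32 with Glul, 0.37 with Slc38a3, 0.29 with Glud1, 0.34 with Got1 and 0.26 with Slc7a11.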

How the data were processed

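Single-cell Smart-seq2 libraries were compared through the 5 tables the authors deposited, 1 per batch, which hold raw read counts per Ensembl gene as whole numbers. The submitters' processing notes name STAR 2.6.0a, RSEM 1.3.0, GRCm38 and mm10, without a role for each. The sources used here do not give the annotation, multi-mapping or strand settings. Without molecular identifiers, duplicate reads from amplification count as reads. Of 289 labelled samples 254 have a column, and 35 of batch 4 were not analysed here. Rows that name no gene were left out of totals (75.6% of counts in batch 1, 22.3% in batch 2, under 1% in the other 3). Symbols and coordinates came from GENCODE M21 (GRCm38), and matched 55141 of 55487 rows in batch 1 and 23747 of 23787, 24265 of 24304, 34531 of 34636 and 27786 of 27849 in batches 2 to 5.

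Counts were summed over the cells of a pool and divided by the pool's reads in genes. Intervals are exact Poisson for CPM and Clopper-Pearson for shares, at 95%, and a count of 0 is compatible with up to 3 counts. Ratios used a pseudocount of 5 CPM, and the background counts all genes at 20 CPM or more in the higher pool. Libraries were taken as near-identical above r = 0.9. The pairs differed by 3.23 and 1.72 chi-square per gene over 1674 and 4090 genes, against 91.7 and 72.6 for the next pair of each table. They differed little beyond sampling noise and were replaced by their rounded mean. Genes named as closest to a member are the 3 with the highest r among genes with a read in 25% or more of cells. Pathway genes named are up to 4 each way per comparison among those past the fold. A few genes that these rules would name are not reported here. The 7 members, the pathway list and the marker lists were chosen with earlier results of these data known. The pooling and ratio code was tested on simulated counts, and the interval code was not. Tools were Python 3.11.15, numpy 2.4.6, pandas 2.3.3, scipy 1.17.1 and matplotlib 3.10.9. Alternatives were a pseudocount of 1, other scalings, leaving out the highest cell of each pool or single cells, mean log2 values over cells, title series taken alone, a depth minimum of 100000 reads, and copies added to Glul and Glud1.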

Additional observations from a re-analysis of the deposited data

Results flagged for a closer look

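In pools of 4 to 10 libraries, 13 of 55 groups had a library far from the others on the log2(CPM + 5) scale. Chance gives about 1 in 20 only where values are normally spread, and many of these groups hold cells at or near 0, so the count is not read against that share. Among the uptake transporters, the lowest cells were 60.6 CPM of Slc1a2 in batch 1 with control gRNA, 2.188 CPM of Slc1a2 in batch 2 with control gRNA at day 7, and 7.31 CPM of Slc1a3 in batch 2 with both gRNAs. The lowest Glul library was at 0 in batch 3 without a gRNA, as in the in-slice controls of batch 5. That batch 3 library was shallow, with 19048 reads in genes. Slc38a3 had 1 high cell in each of 2 pools with both gRNAs, at 109 CPM in batch 1 and 147 CPM in batch 2. Slc7a11 had 1 high cell at 25.4 CPM in batch 2 with control gRNA at day 21 and 1 at 116 CPM in batch 3 without a gRNA. Single high in-slice controls held 10.8 CPM of Slc1a3 and 15.97 CPM of Glud1 in batch 3, and 1.001 CPM of Slc38a3 and 1.001 CPM of Slc7a11 in batch 5.

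Both gRNAs against control gRNA at day 21 pointed in opposite directions in 2 batches: the log2 ratio of Slc1a3 was 1.05 in batch 2 and -2.20 in batch 4, and that of Slc7a11 was 2.804 in batch 2 and -4.00 in batch 4. The difference between the batches was not tested.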

How the results depend on the processing

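Of 46 member ratios past the fold, 38 kept their direction under all alternatives run for them, and 14 of 143 recomputed counts of members past the fold moved by more than 1.5 times; the cause of these changes was not tested. Ratios that reversed were Glul in batch 1, both gRNAs against control (leaving out 1 cell at a time gave -0.17 to 2.00), and Got1 in batch 3 without the highest cell of each pool (2.56 for Sox9 gRNA and 2.63 for both gRNAs against no gRNA) and by mean log2 values over cells (1.06 and 0.52). Mean log2 values gave -1.30 for Glul in batch 4, Trps1 gRNA against control, and the single library of title series 7T2 gave -5.05 for Glul and -3.95 for Slc38a3 there. Title series 21S alone gave -0.68 for Slc1a3 in batch 4, Sox9 gRNA against both, and 21T3 alone gave -0.84 for Slc7a11 in batch 5, Trps1 gRNA against no gRNA, and 1.31 for Sox9 gRNA against Trps1 gRNA. The count in batch 3, Sox9 gRNA against no gRNA, was 6 in place of 3 with median-of-ratios size factors. In batch 3, both gRNAs against Sox9 gRNA, it was 4 in place of 2 without the highest cells, 4 by mean log2 values and 4 with title series 7ST2 alone. In batch 5, Sox9 gRNA against no gRNA, it was 3 in place of 0 by mean log2 values, 1 with size factors, 1 with title series 2AG alone and 2 with AG alone. Sox9 gRNA against Trps1 gRNA gave 2 in place of 1 without the highest cells, 3 by mean log2 values, 2 with size factors, 2 with title series 21T alone, 3 with 21T2 and 3 with 21T3. Counting both libraries of the near-identical pairs was added after seeing the data. No paired analysis was possible because the labels name no animal and no result comes from a test. Pools held 4 to 31 cells, and depth limits the shares of cells with a read: with cells thinned to 100000 reads, Slc38a3 in batch 1 without a gRNA went from 25 of 31 cells to 14.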

Other observations

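Reads of the Glul copy Glns-ps1 took a larger share in some pools than in others. Over cells with 100 or more Glul reads, the median share of Glns-ps1 among reads of Glul and its copies was 2.56% in batch 1 without a gRNA (22 cells, 0 to 6.02%), 3.26% in batch 3 without a gRNA (3 cells) and 5.37% in batch 5 without a gRNA (20 cells, 0 to 7.79%). In the pools with a gRNA it was 0 in batch 1 with control gRNA, 0.0623 to 0.223% in batch 2, 0.279 and 0.389% in batch 3, and 0 to 0.446% in batch 4. Batch 5 gave 1.71% with Sox9 gRNA, 1.44% with Trps1 gRNA and 2.05% in the in-slice controls. Pools with fewer than 3 such cells, among them batch 1 with both gRNAs, were left out. The reason was not tested.

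Glutamine-linked transcripts were also present in libraries labelled as holding no cell, some of which carried microglia and macrophage markers. The batch 3 library with the most Glul (1606 CPM) held 54236 CPM of these markers and 0.463 CPM of astrocyte markers. The batch 2 library held 13968 CPM of them. In batch 5 the 2 libraries of title series 21T2 held 1187 CPM of Glul and 1.05 CPM of these markers. Their part in the Glul level was not tested. The in-slice pools held 776 CPM of Glul in batch 2, 597 CPM in batch 3 (33.9 CPM without the highest library) and 752 CPM in batch 5 (388 CPM without the highest), but no Glul read in batch 4, whereas Slc38a3 had a read in 1 of the 12.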
